A study of Mus musculus with 2 samples.

Results

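The transcripts followed here encode 8 small membrane proteins of the interferon response: Ifitm1, Ifitm2, Ifitm3, Ifitm6, Bst2, Ifi27l2a, Ifi27 and Ly6a. They were taken by symbol from the feature lists of both matrices, and all 8 of 8 were found among the 55357 features. Counts were compared within each cell class, between 2 libraries and between genes grouped as constitutive (Ifitm2 and Ifitm3) and as interferon-induced (Bst2, Ifi27l2a and Ly6a). The grouping was not derived from these data. Ifitm3 was also higher in cells with more UMIs of other interferon-stimulated genes, so it does not stand for genes outside that response.

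The study grew RM-1 cells, a mouse prostate cancer line of WT genotype, under the skin of C57BL/6 mice. Animals received vehicle or RP-6306, an inhibitor of the kinase PKMYT1, and tumours were taken on day 10 of treatment. Droplet libraries of transcript 3' ends (10x Genomics) were prepared, 1 for vehicle and 1 for RP-6306. The age and sex of the hosts are not stated in the labels, nor is it clear whether a library holds more than 1 tumour, and RM-1 is a single cell line. With 1 library per group no difference between treatments could be tested, and every interval below covers counting error only.

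Interferons bind receptors that signal through JAK kinases, and transcription factors activated in this way bind a DNA element, the ISRE, in the promoters of their target genes. IFITM proteins sit in plasma and endosomal membranes and hinder the fusion of enveloped viruses, and Bst2 (tetherin) holds newly budded virions at the cell surface. Ifi27 and Ifi27l2a encode small hydrophobic proteins of the ISG12 family, and Ly6a (Sca-1) is a surface protein with a lipid anchor found on stem and progenitor cells, endothelium and activated lymphocytes.

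In GENCODE M21 on GRCm38, the 4 Ifitm members lie in one cluster on chromosome 7. Ifitm2 (ENSMUSG00000060591) is at 140954837 to 140955987 on the minus strand and Ifitm1 (ENSMUSG00000025491) at 140967221 to 140969825 on the plus strand. Ifitm3 (ENSMUSG00000025492) is at 141009586 to 141010770 and Ifitm6 (ENSMUSG00000059108) at 141015699 to 141017924, both on the minus strand. Ifi27 (ENSMUSG00000064215) and Ifi27l2a (ENSMUSG00000079017) neighbour each other on chromosome 12, at 103434211 to 103440239 on the plus strand and 103442167 to 103443680 on the minus strand. Bst2 (ENSMUSG00000046718) is on chromosome 8, at 71534255 to 71537456 on the minus strand, and Ly6a (ENSMUSG00000075602) on chromosome 15, at 74994877 to 74998031 on the minus strand. All 8 are annotated as protein-coding.

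RefSeq promoter windows (GRCm38.p6, 250 bases before to 50 after the start) were matched for 5 of the 8 members. None was matched for Ifi27l2a, Ifi27 or Ly6a. Stretches of the 5 windows are shown so that the ratios of these members can be set beside the letters of the ISRE core, GAAANNGAAA. The core was searched on both strands, and capitals mark each match on the gene's own strand, read 5' to 3'. The Bst2 stretch is chr8:71537523-71537622, the Ifitm2 stretch chr7:140955988-140956081 and the Ifitm3 stretch chr7:141010714-141010743, all minus strand. The Ifitm1 stretch is chr7:140967926-140968027 on the plus strand and the Ifitm6 stretch chr7:141016909-141017012 on the minus strand, and both lie inside the GENCODE gene but in no exon.
Bst2: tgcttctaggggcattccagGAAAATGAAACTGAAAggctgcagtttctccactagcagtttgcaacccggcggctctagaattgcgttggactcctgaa
Ifitm2: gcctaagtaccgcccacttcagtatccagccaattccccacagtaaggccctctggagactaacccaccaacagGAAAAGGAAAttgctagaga
Ifitm3: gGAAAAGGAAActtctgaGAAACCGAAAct
Ifitm1: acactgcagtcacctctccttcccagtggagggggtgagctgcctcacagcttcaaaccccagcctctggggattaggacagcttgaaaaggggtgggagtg
Ifitm6: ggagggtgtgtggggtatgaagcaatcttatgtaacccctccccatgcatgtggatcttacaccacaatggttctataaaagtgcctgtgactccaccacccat
The Bst2 window held 2 overlapping cores, at -130 to -121 and -124 to -115 from the RefSeq start, upstream of the annotated gene. The Ifitm2 window held 1 core, at -46 to -37. The 2 cores of Ifitm3 lay at 3 to 12 and 20 to 29 after the RefSeq start, in an exon that GENCODE annotates as UTR. The Ifitm1 and Ifitm6 windows held 0 ISRE cores. Of 32851 mouse promoter windows, 3.44% held at least 1 ISRE core and 0.225% held 2 or more. A second interferon-related core, GAS (TTCNNNGAA), was also searched and is not marked above. It had 1 match each in the Bst2, Ifitm3 and Ifitm6 windows and 0 in those of Ifitm1 and Ifitm2. Of all windows 8.3% held at least 1 GAS core. These are matches of letters in a fixed window, and binding was not measured.

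Before filtering, 34 barcodes occurred in both libraries. After filtering, 8856 vehicle and 9500 RP-6306 cells were kept. Cells were assigned by counting distinct marker genes, and no member was a marker. Tumour-like cells, chosen by keratins and other epithelial genes, numbered 6960 and 7112 (median 9854 and 9680.5 UMIs, the molecule counts of this assay). Macrophage-like cells numbered 223 and 252 (5317 and 5025 UMIs), monocyte-like cells 101 and 143 (3048 and 2615 UMIs) and T-like cells 29 and 47 (1308 and 1297 UMIs). All 244 monocyte-like cells lay in the macrophage cluster, so clustering did not separate them from macrophage-like cells. Of these 244, 58 had exactly 3 markers. Macrophage markers summed to 1617 and 1519 CPM in monocyte-like cells and to 11169 and 11664 CPM in macrophage-like cells. Of cells with 3 fibroblast markers, 403 of 508 lay in tumour clusters, so the fibroblast-like and endothelial-like classes below require 5 markers, a choice made after seeing the data. The fibroblast-like class then held 46 and 58 cells and the endothelial-like class 32 and 20. The leukocyte gene Ptprc was at 0 in both stromal classes of both libraries. Macrophage markers summed to 120.5 and 262 CPM in fibroblast-like cells (5 of 8 at 0 in each library) and to 507 and 261 CPM in endothelial-like cells (4 and 5 of 8 at 0). Monocyte markers summed to 789.8 and 1204 CPM in fibroblast-like cells (5 of 8 at 0), Lyz2 was between 3.35 and 10.9 CPM in both classes, and the part of these in the stromal ratios was not tested.

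Levels are in CPM, the summed UMIs of a gene scaled to the same total of UMIs in every class and library. With 3' counting a transcript gives UMIs from its end whatever its length. Reads shared between similar genes are not counted, which touches some members more than others. In the last 500 bases of their transcripts, 41.9% of 50-base stretches of Ifitm2 also occurred in another gene, mainly Ifitm3 and pseudogenes, against 14.0% for Ifitm3, 11.8% for Ifitm1, 8.13% for Ly6a and 0 for Bst2, Ifitm6 and Ifi27. The order of Ifitm2 below Ifitm3 is therefore uncertain, while a ratio of the same gene between libraries is affected alike in both. RNA released from tumour cells was gauged by Krt8, an epithelial keratin. Tumour-like cells had 1021 CPM of it with vehicle and 779 CPM with RP-6306, and macrophage-like cells 64.5 and 56.0 CPM. Another keratin, Krt18, was at 593 and 617 CPM in tumour-like cells. In the few T-like cells Krt8 was at 81.0 and 138 CPM and Krt18 at 20.3 and 106 CPM. The reckonings below use Krt8 only and would differ with Krt18.

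Ifitm3 was the most abundant member in tumour-like cells, and its ratio between libraries was lower there than those of Bst2 and Ifi27l2a. It gave 79115 UMIs in the vehicle library, a level of 1022 CPM (95% Poisson interval 1015 to 1029), and 89319 UMIs or 1157 CPM (1149.6 to 1165) in the RP-6306 library. The ratio of RP-6306 over vehicle was 1.13 (exact conditional interval 1.12 to 1.14). By level in these cells of the RP-6306 library, Ifitm3 ranked 139 among 13560 genes with at least 100 UMIs. Every other class except T-like cells had more of it. Monocyte-like cells had 1852 and 2203 CPM (ratio 1.19, 1.07 to 1.32) and macrophage-like cells 1736 and 1875 CPM (ratio 1.08, 1.02 to 1.15). Fibroblast-like cells had 1576 and 1382 CPM, a ratio of 0.877 (0.773 to 0.994), and endothelial-like cells 1583 and 1508 CPM, a ratio of 0.953 (0.812 to 1.12). In the vehicle library the intervals of neighbouring classes overlapped from monocyte-like down to fibroblast-like cells, and tumour-like cells lay clearly below all 4. T-like cells were lowest, with 13 and 60 UMIs or 263 and 488 CPM, beside 81.1 and 205 CPM that tumour RNA would bring if all Krt8 there came from it, with the member in the same proportion to Krt8 as in tumour-like cells. In monocyte-like cells the 8 neutrophil markers summed to 497 and 1144 CPM, with 2 and 0 of them at 0, and the 8 monocyte markers to 5275 and 6367 CPM, and their part in the ratios was not tested. With 5 monocyte markers the Ifitm3 log2 ratio there was -0.0045 in place of 0.25.

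Ifitm2, which neighbours Ifitm1 in the cluster, differed between libraries by less than counting error in tumour-like cells. It gave 563 CPM (558 to 569) with vehicle and 568 CPM (563 to 573) with RP-6306, a ratio of 1.01 (0.995 to 1.02). Macrophage-like cells had the highest level among the 6 classes, 1117 and 1249.7 CPM (ratio 1.12, 1.04 to 1.20). Fibroblast-like, monocyte-like and endothelial-like cells followed in the vehicle library at 987, 839.6 and 833 CPM, with overlapping intervals between neighbours, and their ratios of 0.889, 1.13 and 0.810 all had intervals that held 1. For both members grouped as constitutive T-like cells lay below tumour-like cells, and tumour-like cells below the other 4 classes, in both libraries. Summed, Ifitm2 and Ifitm3 went from 1585 to 1725 CPM in tumour-like cells (ratio 1.09, 1.08 to 1.10) and from 2853 to 3125 CPM in macrophage-like cells (ratio 1.10).

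Bst2 and the sparse Ifi27l2a had the highest ratios of the 8 members in tumour-like cells. Bst2 gave 6311 UMIs or 81.5 CPM (79.5 to 83.5) with vehicle and 10881 UMIs or 141 CPM (138 to 144) with RP-6306, a ratio of 1.73 (1.68 to 1.78). With cells thinned to 2000 UMIs (6907 and 7038 cells, leaving out 53 and 74 shallower ones), 13.9% of vehicle cells (13 to 14.7) and 22.7% of RP-6306 cells (21.7 to 23.7) had a Bst2 UMI. Without thinning the shares were 49.4% and 60.5%. Both the level and the share of cells were therefore higher in the RP-6306 library by more than counting error.

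Macrophage-like cells had more Bst2 than tumour-like cells and a similar ratio. Their level was 216 CPM (191 to 244) with vehicle and 362 CPM (330.4 to 397) with RP-6306, a ratio of 1.68 (1.44 to 1.95), and the thinned share of cells with a UMI was 31.8% and 44.3%. Monocyte-like cells stood at 176 and 235 CPM (ratio 1.34, 0.957 to 1.88) and T-like cells at 263 and 269 CPM (ratio 1.02, 0.523 to 2.11), where the counts did not separate the libraries. Endothelial-like cells had the highest level, 391 CPM (321 to 472) with vehicle and 511 CPM (407 to 632) with RP-6306, again without separation (ratio 1.31, 0.970 to 1.75), and with 3 markers the direction turned (ratio 0.860, 0.666 to 1.11). Fibroblast-like cells were lowest with vehicle, at 14 UMIs or 46.9 CPM (25.6 to 78.6), and reached 67 UMIs or 172 CPM (134 to 219) with RP-6306, a ratio of 3.68 (2.05 to 7.09). With 3 fibroblast markers, a class mostly of cells in tumour clusters, the ratio was 1.98 (1.64 to 2.40). Plasmacytoid dendritic cells, for which Bst2 is a known marker, were too rare to compare, with 2 and 3 cells and 5 and 12 Bst2 UMIs.

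Ifi27l2a separated the cell classes more than any other member except Ifitm6. It was sparse in tumour-like cells, with 296 UMIs or 3.82 CPM (3.40 to 4.28) for vehicle and 563 UMIs or 7.29 CPM (6.70 to 7.92) for RP-6306, a ratio of 1.91 (1.65 to 2.20). In leukocytes it was abundant. Macrophage-like cells had 369 CPM (336 to 405) and 671 CPM (627 to 717), a ratio of 1.82 (1.62 to 2.04), and monocyte-like cells 519 CPM (443 to 603) and 955 CPM (865 to 1052), a ratio of 1.84 (1.54 to 2.22). T-like cells had 769.8 CPM (545 to 1057) and 903 CPM (743 to 1088), and the ratio of 1.17 (0.805 to 1.74) did not separate the libraries. The thinned share of macrophage-like cells with a UMI was 39.8% (33.2 to 46.8) for vehicle and 60.9% (54.2 to 67.2) for RP-6306. Fibroblast-like cells had 12 and 13 UMIs, and endothelial-like cells 0 and 9, so that the vehicle level there was below 13.4 CPM.

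Free RNA was considered for the low Ifi27l2a level in tumour-like cells. In tumour-like cells Lyz2 was at 7.81 and 8.58 CPM, against 5798 and 5020 CPM in macrophage-like cells. If all of it came from macrophages, the same source would bring 0.498 and 1.15 CPM of Ifi27l2a, beside 3.82 and 7.29 CPM measured. The same reckoning gives 0.112 and 0.102 CPM for Ifitm6, against 1.33 and 1.30 CPM measured. It covers macrophages only. Monocyte-like cells had more Ifi27l2a (519 and 955 CPM) beside similar Lyz2 (5633 and 5946 CPM). T-like cells had 769.8 and 903 CPM of Ifi27l2a with Lyz2 at 0 and 57.0 CPM, so Lyz2 does not gauge their RNA. The part of free RNA in the tumour-like level was not tested.

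Ly6a had a small ratio in tumour-like cells and large ones in several host classes. In tumour-like cells it rested on 13985 and 15809 UMIs, at 181 CPM (178 to 184) and 205 CPM (202 to 208), a ratio of 1.13 (1.11 to 1.16), equal to that of Ifitm3 at this rounding. In macrophage-like cells it stood at 61.3 CPM (48.3 to 76.7) and 149.7 CPM (129 to 172), a ratio of 2.44 (1.86 to 3.23). Those UMIs were concentrated, with 50 of 76 vehicle and 103 of 195 RP-6306 UMIs in the 10 highest cells. Monocyte-like cells had 10 and 38 UMIs, 30.9 and 88.5 CPM, a ratio of 2.87 (1.40 to 6.45). Tumour RNA would bring 11.4 and 14.7 CPM of Ly6a to macrophage-like cells by the Krt8 reckoning, and 17.5 and 16.5 CPM to monocyte-like cells, where the vehicle interval (14.8 to 56.8) includes it.

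In T-like and stromal cells Ly6a was more abundant than in macrophage-like cells. T-like cells had 567 CPM (377 to 819.8) and 1017 CPM (847 to 1212), a ratio of 1.79 (1.18 to 2.81). The make-up of this class differed between libraries too, a part in its ratios that was not tested: the 10 T markers summed to 5672 and 3865 CPM, Ptprc to 1053 and 578 CPM, the 9 fibroblast markers to 122 and 488 CPM, 8 and 5 of them being at 0, and the 8 tumour markers to 203 and 342 CPM. Fibroblast-like cells had 228 CPM (177 to 289) and 859 CPM (769.7 to 957), a ratio of 3.78 (2.90 to 4.98). Of those UMIs 54 of 68 and 210 of 334 lay in the 10 highest cells, and the thinned share of cells with a UMI was 22.2% (11.2 to 37.1) and 53.4% (39.9 to 66.7). Endothelial-like cells went the other way, with 880.3 CPM (773 to 998) and 657 CPM (539 to 793), a ratio of 0.746 (0.589 to 0.940). With 3 markers in place of 5, the ratio was 1.37 (1.22 to 1.54) in the fibroblast class, which then consists mostly of cells in tumour clusters, and 0.574 (0.471 to 0.699) in the endothelial class.

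**Figure D1:**
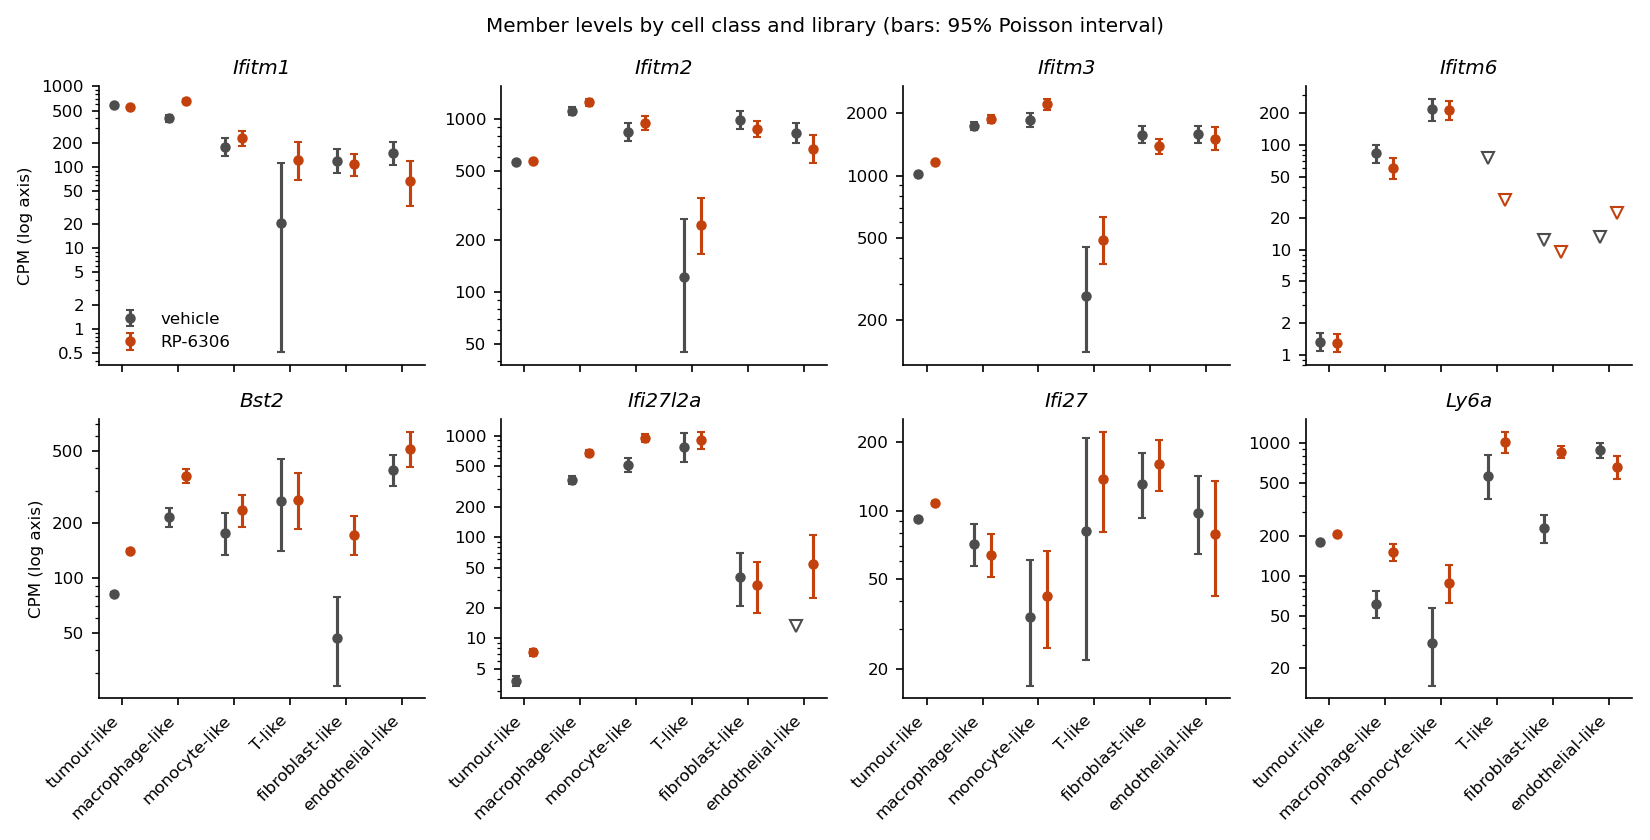
Level of each of the 8 members (CPM, log axis) in 6 cell classes, vehicle in grey and RP-6306 in orange; points are 1 library each, bars are 95% Poisson intervals and open triangles are upper limits where no UMI was counted. Ifitm2 and Ifitm3 are high in all classes except T-like cells, Ifi27l2a is at 3.82 and 7.29 CPM in tumour-like cells and at 369 CPM or more in the leukocyte classes, and Ifitm6 was counted in 3 of the 6 classes.

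Ifitm1, whose protein lies mainly at the plasma membrane, ran in opposite directions in tumour-like and macrophage-like cells. In tumour-like cells it was slightly lower in the RP-6306 library, at 583 CPM (578 to 589) and 558 CPM (553 to 564), a ratio of 0.957 (0.944 to 0.969). In macrophage-like cells it was 399 CPM (364 to 435) and 655 CPM (612 to 700.3), a ratio of 1.64 (1.47 to 1.84), with 36.6% and 31.4% of the UMIs in the 10 highest cells. Tumour RNA would bring 36.9 and 40.1 CPM by the Krt8 reckoning, far below these levels. Its level in monocyte-like cells was 179 and 226 CPM (ratio 1.26, 0.902 to 1.78) and in fibroblast-like cells 120.5 and 108 CPM (ratio 0.897, 0.561 to 1.44). In endothelial-like cells it rested on 41 and 11 UMIs (149 and 66.9 CPM, ratio 0.450, 0.209 to 0.892), and with 3 markers the direction turned (ratio 1.26, 0.990 to 1.60). In T-like cells its 1 and 15 UMIs (20.3 and 122 CPM) stood beside 46.3 and 99.1 CPM that tumour RNA would bring by the same reckoning, whose part was not tested. The highest level of Ifitm1 was seen in the few neutrophil-like cells, 10 UMIs in 2 vehicle cells and 96 UMIs in 12 RP-6306 cells (2569 CPM, 2081 to 3137, in the latter).

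Ifitm6 was a myeloid gene in these tumours. Monocyte-like cells had 71 and 92 UMIs, 219 CPM (171 to 276) and 214 CPM (173 to 263), a ratio of 0.978 (0.710 to 1.35). Macrophage-like cells had 103 and 78 UMIs, 83.1 CPM (67.8 to 101) and 59.9 CPM (47.3 to 74.7), a ratio of 0.721 (0.530 to 0.977), the only member besides Ifi27 with a ratio under 1 in this class. That difference depended on the processing. The log2 ratio ran from -0.56 to -6.6e-05 over 10 alternatives (main -0.47). The share of macrophage-like cells thinned to 2000 UMIs that had an Ifitm6 UMI was 12.8% (8.60 to 18.1) and 10.9% (7.16 to 15.6). Neutrophil-like cells had 3 and 30 UMIs (803 CPM, 542 to 1146, with RP-6306). Tumour-like cells were at 1.33 and 1.30 CPM, and no UMI was counted in T-like, fibroblast-like or endothelial-like cells, with upper limits between 9.49 and 74.7 CPM.

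Ifi27 varied least over the 6 classes of the vehicle library. Tumour-like cells had 91.8 CPM (89.7 to 93.9) with vehicle and 108 CPM (105 to 110.1) with RP-6306, which gives a ratio of 1.17 (1.14 to 1.21). Fibroblast-like cells had 131 and 159.5 CPM (ratio 1.22, 0.806 to 1.87), endothelial-like cells 97.8 and 79.1 CPM and macrophage-like cells 71.0 and 63.7 CPM (ratio 0.897, 0.657 to 1.23). Monocyte-like cells had 11 and 18 UMIs and T-like cells 4 and 17. Of the 6 classes only tumour-like cells separated the libraries for Ifi27, in contrast to its chromosomal neighbour Ifi27l2a. The other classes rest on far fewer cells, and the fibroblast-like ratio of 1.22 was no lower than that of tumour-like cells.

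**Figure D2:**
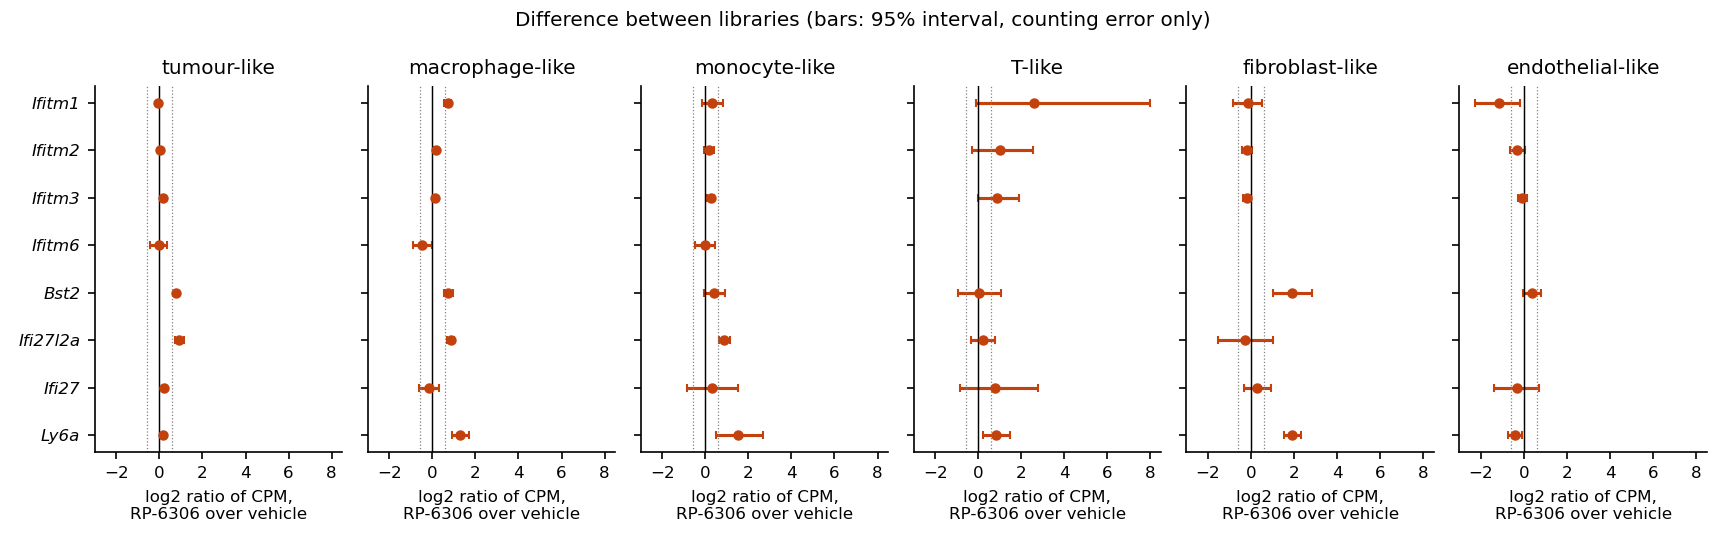
log2 ratio of CPM, RP-6306 over vehicle, for each member in 6 cell classes; bars are 95% exact conditional intervals and dotted lines mark 1.5-fold. Bst2 and Ifi27l2a lie past the upper dotted line in tumour-like and macrophage-like cells, Bst2 and Ly6a in fibroblast-like cells, while the points of Ifitm2 and Ifitm3 stay between the lines in all classes except T-like cells.

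Across all genes with at least 100 UMIs over both libraries, few differed as much. A gene was counted where log2(CPM + 1) differed by at least 1.5-fold. In tumour-like cells 2 of 8 members, Bst2 and Ifi27l2a, were higher by that rule, against 0.516% of 13560 genes, and 0 of 8 were lower, against 0.251%. By ratio, 29 genes stood above Bst2, 30 above Ifi27l2a, 820 (6.05%) above Ifi27, 1235 (9.11%) above Ly6a and 1252 (9.23%) above Ifitm3. In macrophage-like cells 4 of 8 were higher (Ly6a, Ifi27l2a, Bst2 and Ifitm1), against 1.95% of 3736 genes, and 0 were lower, against 1.42%. By ratio, 4 genes stood above Ly6a there, 20 above Ifi27l2a, 40 above Bst2 and 44 above Ifitm1.

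In the smaller classes fewer members reached 100 UMIs and the background was higher. In monocyte-like cells 1 of 6 was higher (Ifi27l2a), against 3.12% of 1216 genes, and 0 lower, against 2.55%. In T-like cells 1 of 2 was higher (Ly6a), against 13.2% of 227 genes, and 0 lower, against 8.37%. In fibroblast-like cells 1 of 4 was higher (Ly6a), against 10.6% of 1041 genes, and 0 lower, against 5.19%, Bst2 having too few UMIs to be counted. In endothelial-like cells 0 of 4 were higher, against 6.19% of 743 genes, and 0 lower, against 4.44%. The counts of these 4 classes are too small to set the members apart from the background.

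The members grouped as induced were also summed and set beside those grouped as constitutive. Bst2, Ifi27l2a and Ly6a together went from 266 to 353 CPM in tumour-like cells, a ratio of 1.33 (1.30 to 1.35) beside 1.09 for Ifitm2 and Ifitm3. Most of that sum was Ly6a (181 of 266 CPM with vehicle), and the ratio lay below those of Bst2 and Ifi27l2a alone. In macrophage-like cells the sum went from 647 to 1183 CPM, a ratio of 1.83 (1.68 to 1.99) beside 1.10. In fibroblast-like cells the ratio was 3.39 beside 0.881. T-like cells did not show the contrast, with 1.37 for the induced and 1.90 for the constitutive sum, nor did endothelial-like cells, with 0.961 and 0.903.

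Other genes of the pathway were read from lists given by function. Of 30 interferon-stimulated genes, 29 had 100 UMIs in tumour-like cells, 28 were higher in the RP-6306 library and 15 were so by 1.5-fold or more. Their median log2 ratio was 0.65, beside 0.18 for the 8 members and -0.02 for all genes tested, of which 43.5% were higher. Isg15, a ubiquitin-like modifier, went from 55.2 to 106 CPM (log2 ratio 0.93) and Rsad2 (viperin) from 23.1 to 59.0 CPM (1.32). The exception was Eif2ak2, the kinase PKR, at 30.6 and 29.9 CPM. Bst2, at 0.78 on the same log2 scale, lay above the list's median, and Ifitm3, at 0.18, below it.

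Receptors and signalling proteins showed no such direction in tumour-like cells. Of 11, 6 were higher and 5 lower, 0 by 1.5-fold, with a median log2 ratio of 0.06. Jak1, a kinase of interferon receptors, had 176 and 174 CPM, Irf1, a transcription factor, 127 and 126 CPM, and Ifngr1, a chain of the interferon gamma receptor, 45.8 and 55.9 CPM. Of 8 restriction factors, which limit viruses by other means, 4 were higher and 4 lower (median 0.06). Apobec3, a cytidine deaminase, went from 101 to 90.7 CPM and Zc3hav1 (ZAP), which binds viral RNA, from 46.7 to 57.5 CPM. Of 9 interferon gamma GTPases, 8 were higher, 3 by 1.5-fold or more (median 0.49), the most abundant being Gbp2 (10.3 and 15.1 CPM) and Irgm1 (6.86 and 10.0 CPM).

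In macrophage-like cells 9 interferon-stimulated genes could be measured, and 9 were higher, 6 by 1.5-fold or more. Their median log2 ratio was 0.75, beside 0.44 for the 8 members and -0.01 for all genes, of which 49.0% were higher. Isg15 went from 80.7 to 193 CPM, Rsad2 from 56.5 to 101 CPM and Trim30a from 102 to 137 CPM. Ifitm1 (0.71), Bst2 (0.74) and Ifi27l2a (0.86) lay near that median, Ly6a (1.27) above it and the other 4 members below it.

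The summed interferon-stimulated list was set beside the members in every class. It went from 289 to 490.1 CPM in tumour-like cells (ratio 1.69, 1.67 to 1.72), from 771 to 1396 CPM in macrophage-like cells (1.81, 1.67 to 1.96) and from 1062 to 1318 CPM in monocyte-like cells (1.24, 1.08 to 1.42). In fibroblast-like cells it went from 308 to 1049.9 CPM, a ratio of 3.41 (2.71 to 4.32), beside 3.68 for Bst2 and 3.78 for Ly6a. In endothelial-like cells it went from 1275 to 736 CPM, a ratio of 0.577 (0.465 to 0.711), and in T-like cells from 2552 to 2295 CPM (0.899, 0.726 to 1.12). The classes where Ly6a was higher or lower in the RP-6306 library were thus those where this list was, with the exception of T-like cells, while the Bst2 ratio in endothelial-like cells was 1.31 with an interval that held 1.

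**Figure D3:**
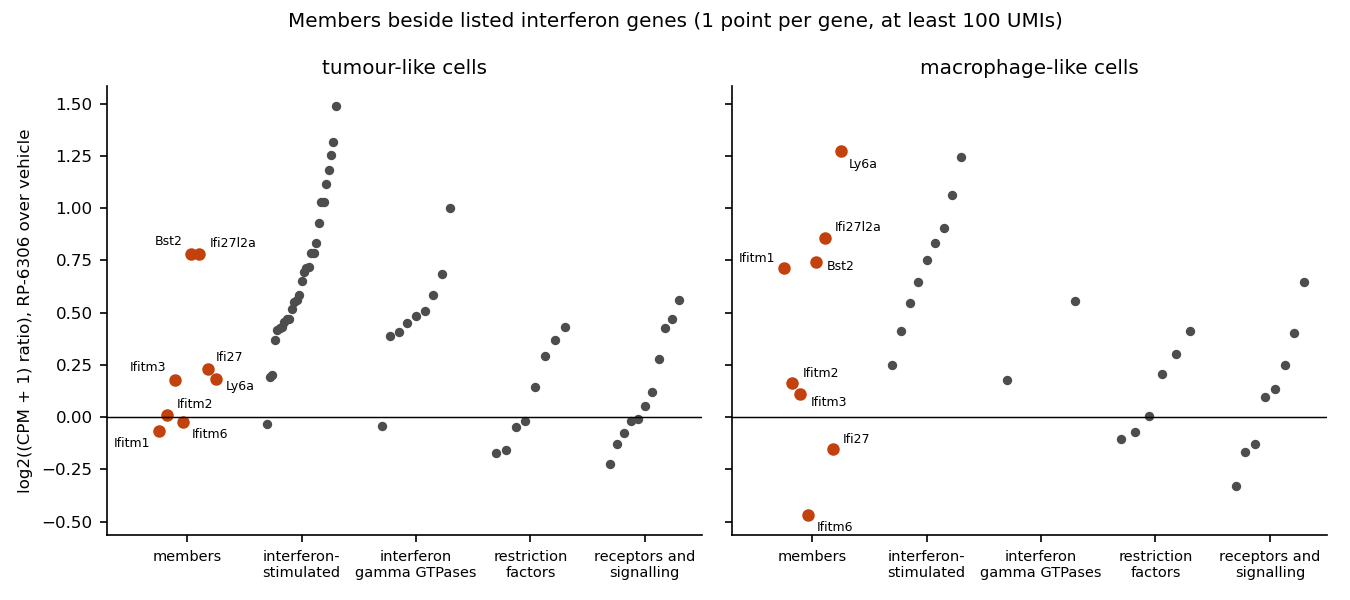
log2 ratio of CPM + 1, RP-6306 over vehicle, for the 8 members (orange, named) and the genes of 4 interferon lists (grey), 1 point per gene with at least 100 UMIs, in tumour-like and macrophage-like cells. In both classes Bst2 and Ifi27l2a lie among the interferon-stimulated genes. Ifitm2, Ifitm3 and Ifi27 lie below all of that list in macrophage-like cells. In tumour-like cells they overlap its low end, at 0.01, 0.18 and 0.23.

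Within each library, tumour-like cells were then divided by their UMIs of 12 other interferon-stimulated genes after thinning to 2000 UMIs. Cells with 0 such UMIs made up 85.1% of the vehicle and 76.1% of the RP-6306 library, cells with 1 to 2 12.6% and 18.0%, and cells with 3 or more 2.26% (156 cells) and 5.90% (415 cells). At this depth a cell with 0 UMIs may still express the genes.

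Bst2 followed the other interferon-stimulated genes from cell to cell. In the vehicle library it was at 70.8 CPM in cells with 0, 117 CPM with 1 to 2 and 314 CPM with 3 or more, a ratio of 4.44 (3.56 to 5.47) of the last over the first. In the RP-6306 library the 3 levels were 116, 195 and 402 CPM, and the last exceeded the first 3.47-fold (3.07 to 3.92). Within each range of interferon-stimulated UMIs Bst2 was still higher in the RP-6306 library, by ratios of 1.64 (1.5 to 1.79), 1.67 (1.41 to 1.97) and 1.28 (1.02 to 1.62). In cells without any UMI of the leukocyte markers, the ratio of 3 or more over 0 was 4.47 and 3.63.

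Ifitm3 and Ly6a also followed these genes, and their ratios between libraries at a given number of interferon-stimulated UMIs were lower than those of Bst2. Ifitm3 was at 1052, 1316 and 2016 CPM in the vehicle library (ratio of last to first 1.92, 1.77 to 2.08) and at 1104, 1481 and 2035 CPM with RP-6306 (1.84, 1.75 to 1.94). Ly6a was at 192, 266 and 394 CPM (2.05, 1.70 to 2.46) and at 192, 279.8 and 420.5 CPM (2.19, 1.95 to 2.45). The ratio between libraries for Ifitm3 was 1.05 (1.02 to 1.08) in cells with 0 such UMIs, 1.13 (1.07 to 1.19) with 1 to 2 and 1.01 (0.921 to 1.11) with 3 or more. For Ly6a it was 1.0 (0.942 to 1.06), 1.05 (0.934 to 1.18) and 1.07 (0.866 to 1.32). Thus Ifitm3, although grouped as constitutive, was higher in cells with more interferon-stimulated UMIs, in both libraries.

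Ifitm1 and Ifitm2 had lower ratios over the same ranges. For Ifitm1 the ratio of cells with 3 or more to cells with 0 was 1.17 (1.02 to 1.34) with vehicle and 1.13 (1.03 to 1.23) with RP-6306. For Ifitm2 it was 1.19 (1.03 to 1.36) and 1.14 (1.04 to 1.24). By UMIs of interferon gamma GTPases in place of the 12 genes, the Ifitm1 ratio was 1.62 (1.15 to 2.22) with vehicle and 1.02 (0.750 to 1.34) with RP-6306. Ifi27 gave 1.25 (0.872 to 1.74) and 1.36 (1.11 to 1.64). Ifi27l2a, from few UMIs, gave 3.43 (0.894 to 9.41) and 5.87 (3.5 to 9.57).

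**Figure D4:**
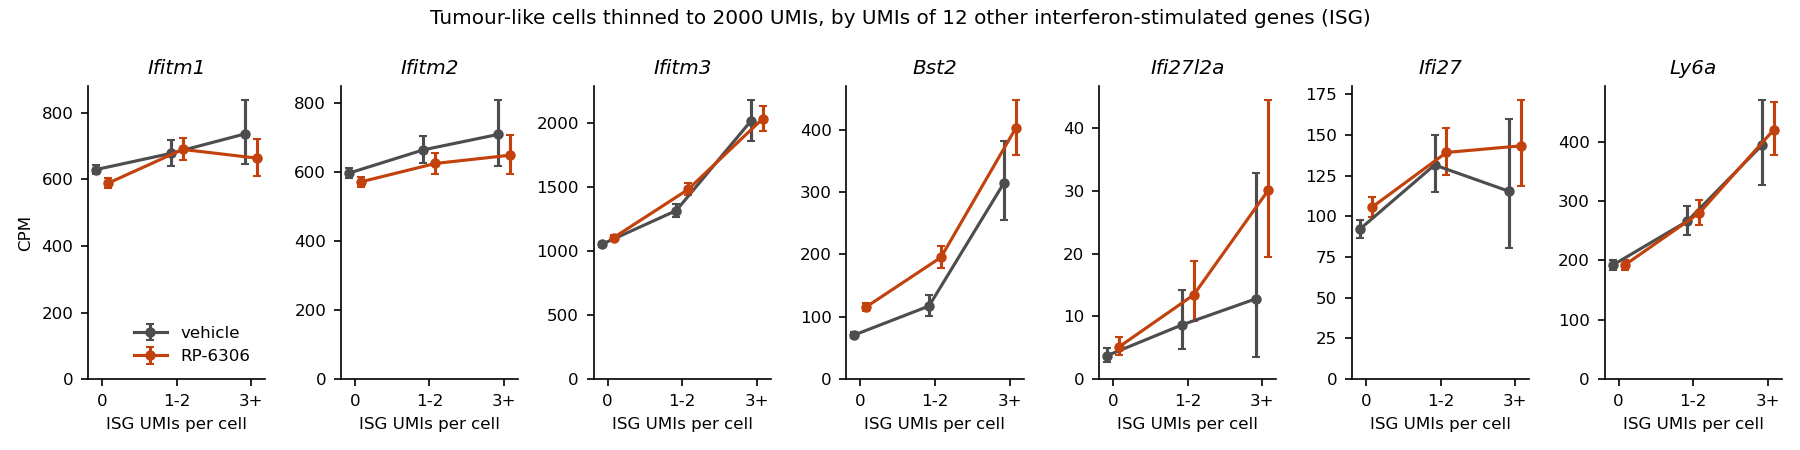
Level (CPM) of 7 members in tumour-like cells thinned to 2000 UMIs, by the cell's UMIs of 12 other interferon-stimulated genes; vehicle in grey, RP-6306 in orange, bars are 95% Poisson intervals. Bst2, Ifitm3, Ifi27l2a and Ly6a are higher towards the right in both libraries, the lines of Bst2 lie apart in cells with 0 such UMIs, and the lines of Ifitm1 and Ifitm2 are flatter.

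In macrophage-like cells the same division left 16 vehicle and 31 RP-6306 cells in the highest range, so the values are less precise. Ly6a was at 25.5, 92.1 and 312 CPM with vehicle and 73.5, 103 and 532 CPM with RP-6306, ratios of last to first of 12.3 (4.36 to 35.8) and 7.24 (4.03 to 13.3). Bst2 was at 140.1, 395 and 594 CPM with vehicle, and the ratio between libraries in these ranges was 1.78 (1.20 to 2.67), 1.23 (0.780 to 1.97) and 1.22 (0.701 to 2.21). Ifi27l2a was at 322, 737 and 875 CPM and at 507, 841 and 1306 CPM. These 3 members followed the interferon-stimulated genes in both libraries. Ifitm3 did too, with ratios of last to first of 1.56 (1.22 to 1.97) with vehicle and 1.69 (1.41 to 2.02) with RP-6306. Ifitm1 did not: its ratio of last to first was 1.49 (0.869 to 2.43) with vehicle and 0.850 (0.581 to 1.21) with RP-6306. In macrophage-like cells with 0 interferon-stimulated UMIs Ifitm1 was nevertheless higher in the RP-6306 library by 1.76 (1.40 to 2.23).

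Cell cycling was examined because PKMYT1 acts on the entry into mitosis. Among thinned tumour-like cells, 39.4% of the vehicle and 35.5% of the RP-6306 library had a UMI of a proliferation gene. The Bst2 ratio between libraries was 1.75 (1.55 to 1.98) in those cells and 1.81 (1.65 to 1.98) in the others. In the RP-6306 library Bst2 in cells with a proliferation UMI was 0.916 of its level in the others, Ifitm3 0.868 and Ly6a 0.829. The Bst2 difference between libraries was therefore of similar size in both kinds of cell.

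The ratio was also read in 11 clusters with at least 50 tumour-like cells per library, which included 6896 of the 6960 cells of this class with vehicle and 7030 of the 7112 with RP-6306. The other 3 tumour clusters were smaller and left out. Bst2 was higher in the RP-6306 library in 11 of 11, with every interval above 1 and ratios from 1.44 to 2.08. Ifitm3 was higher in 11 of 11 (9 intervals above 1, ratios 1.01 to 1.21), and Ifitm1 lower in 11 of 11 (8 intervals below 1, ratios 0.803 to 0.990). Ifi27l2a was higher in 11 (4 intervals above 1), Ifi27 in 10 (7 above 1) and Ly6a in 10 (5 above and 1 below 1), while Ifitm2 was higher in 3 and lower in 8 (2 below 1).

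The clusters also differed in level. Ly6a ranged from 75.6 to 317 CPM over the clusters of the vehicle library, a 4.20-fold range, and Bst2 from 54.0 to 116 CPM. Cluster 0, led by Serpina3g, Socs3 and Has2 among others, had the highest Ly6a (317 and 355 CPM). Cluster 5, led by Gpnmb, Cryab and Hmox1 among others, had the lowest (75.6 and 89.3 CPM), as well as the lowest Bst2, Ifitm3 and Ifitm1 of the vehicle library. The members were left out of the genes used for clustering, and differences in level between clusters are given as a description.

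**Figure D5:**
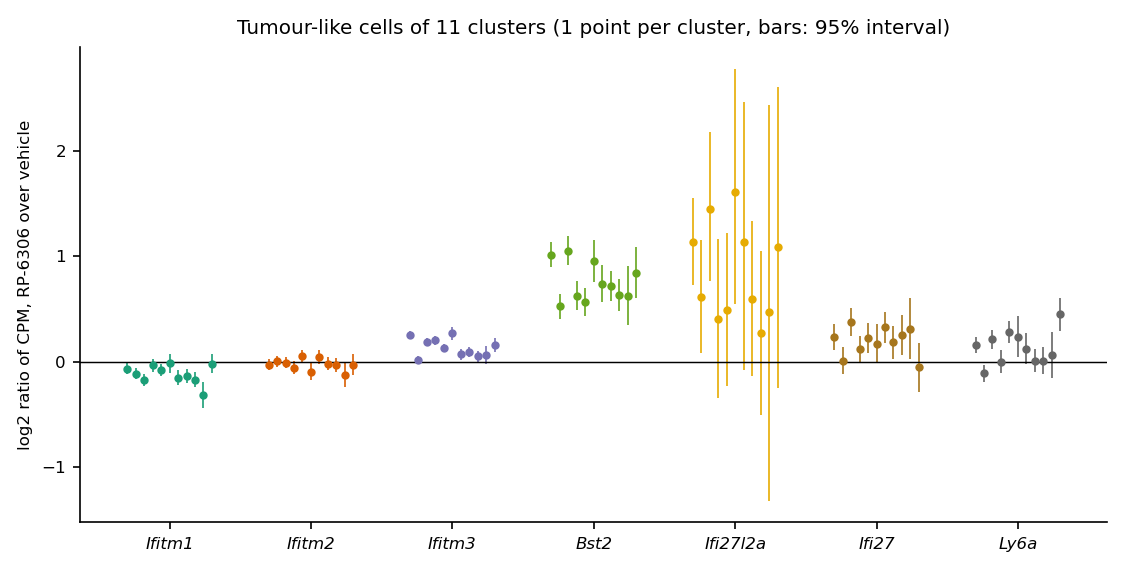
log2 ratio of CPM, RP-6306 over vehicle, of 7 members in each of 11 clusters of tumour-like cells, 1 point per cluster with its 95% exact conditional interval. All 11 points of Bst2 lie above 0 and all 11 of Ifitm1 below 0, and the points of Ifitm2 scatter around 0.

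Relatives of the members were read by level alone. In tumour-like cells Ifitm5 had 25 and 36 UMIs, Ifitm7 5 and 9, Ifitm10 73 and 56 and Ifi27l2b 0 and 1, so these relatives add little to the family there. Ly6e, a broadly expressed relative of Ly6a, had 380.3 and 405 CPM in tumour-like cells (ratio 1.06, 1.05 to 1.08) and 361 and 590.3 CPM in macrophage-like cells (1.64, 1.45 to 1.84). Ly6c1, which is typical of endothelium, had 714 and 444 CPM in endothelial-like cells (0.622, 0.469 to 0.818). In fibroblast-like cells it had 15 and 100 UMIs, 50.2 and 257 CPM (5.13, 2.96 to 9.50), the same direction as Ly6a in both classes. Ly6a and Ly6c1 share some of their 3' sequence, so part of their reads may have gone uncounted.

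Genes whose pattern over the 6 classes and 2 libraries was most like that of a member were ranked by Pearson correlation of log2(CPM + 1) over 12 points, which share libraries and classes, among 14044 genes. Ifitm2 and Ifitm3 were each other's nearest gene (0.974), followed by Lamp2 for Ifitm2 (0.962) and Vwa5a for Ifitm3 (0.958). By Spearman rank correlation their value was 0.839 and neither was among the nearest 3 of the other. No other member had a member among its nearest 3. The nearest gene was Gm37334 for Ifitm6 (0.997), Gm37531 for Ifi27l2a (0.967), Txn2 for Ifitm1 (0.929), Nrbp1 for Bst2 (0.929), Pdrg1 for Ifi27 (0.929) and Fyn for Ly6a (0.919). With 12 dependent points these values are a description.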

How the data were processed

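Single-cell transcriptomes of RM-1 tumours were compared between 1 vehicle and 1 RP-6306 library. The authors deposited raw UMI counts per gene and barcode, written by Cell Ranger 7.1.0 per the file headers. Version 2.1.1 and the mm10 build stand in the submitters' processing notes, and which version applies was not resolved. The libraries held 9686 and 10512 barcodes with 100815022 and 106465655 counts. Barcodes with under 500 genes (132 and 188) or over 15% mitochondrial counts (14 and 16) were removed. The doublet caller of scanpy 1.11.5 marked only 0 and 1 cells and was set aside, so the highest-scoring 8% (684 and 808, ties kept) were removed instead, a choice made after seeing the data.

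A cell joined a leukocyte or stromal class with 3 distinct markers (5 for stroma, added later) and was tumour-like with 3 UMIs of 2 tumour markers and fewer than 3 of any other list. Mixed (405 and 480) and unassigned cells (836 and 1050) were left out. Clusters came from leidenalg 0.10.2 on 2000 variable genes, chosen without the members and interferon lists.

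CPM were computed per class and library from summed counts, with 95% Poisson intervals, exact conditional intervals for ratios and Clopper-Pearson intervals for shares of cells. These cover counting error only, and no test between treatments was made. The 1.5-fold count over all genes used a pseudocount of 1 CPM and at least 100 UMIs. The rule of this count was tried on simulated sums for tumour-like and macrophage-like cells only. Of 100 genes changed 2-fold, 84 and 88 were counted, and of the unchanged genes 0 and 32 (0.903% for macrophage-like cells). The simulated sums held Poisson counting error only, without differences between cells or between libraries. The shares of unchanged genes counted may therefore be higher in the real data. All 8 members were named in every class. Of each pathway list the 2 most abundant genes and the 2 most different at 50 CPM or more were named, with the single exceptions in a list. For likeness the nearest 3 genes were considered. Members and lists were chosen with earlier results of these data known. The reference was GENCODE M21 on GRCm38 for positions and RefSeq for promoter windows. Alternatives used TMM factors from edgeR 4.0.16, other filters, gates, depths and Leiden classes.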

Additional observations from a re-analysis of the deposited data

Results flagged for a closer look

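For 3 members the ratio of RP-6306 over vehicle had its interval on opposite sides of 1 in 2 cell classes. The difference between the classes was not tested, since each class comes from 1 library per group. Ifitm1 had a ratio of 1.64 in macrophage-like and 0.450 in endothelial-like cells, the latter from 41 and 11 UMIs, and the endothelial value was 1.26 with 3 markers. Ifitm3 had a ratio of 1.85 in T-like cells, from 13 and 60 UMIs, and 0.877 in fibroblast-like cells. In T-like cells its log2 ratio turned to -0.10 in Leiden classes and -0.064 as a per-cell mean, and tumour RNA would bring 81.1 of 263 and 205 of 488 CPM there by the Krt8 reckoning. Ly6a had a ratio of 3.78 in fibroblast-like and 0.746 in endothelial-like cells, and in fibroblast-like cells the 10 highest cells held 54 of 68 and 210 of 334 UMIs.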

How the results depend on the processing

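No paired analysis was possible because each group has 1 library and the labels give no replicate numbers. The log2 ratio of Bst2 kept its direction and stayed past 1.5-fold under 10 alternatives in tumour-like (0.77 to 0.83) and macrophage-like cells (0.68 to 0.81). Ifitm3 in tumour-like cells (0.18) was 0.20 with TMM factors, 0.15 as a mean of per-cell CPM and 0.15 after thinning, and in macrophage-like cells (0.11) it was 0.23 in Leiden classes. With at least 50 CPM, 10 genes were higher and 3 lower in tumour-like cells (main counts 70 and 34). With at least 10 UMIs, 859 were higher and 868 lower in macrophage-like cells (main counts 73 and 53), where more sparse genes are tested. The Bst2 difference in share of tumour-like cells (8.85 points) was 4.92 at 1000 UMIs and 11.1 without thinning. The ratio of cells with 3 or more over 0 interferon-stimulated UMIs was 2.03 for Ifitm3 (main 1.84) and 4.19 for Bst2 (main 3.47) by GTPase UMIs, and that of 2 or more over 0 in cells thinned to 1000 UMIs was 2.91 for Bst2. In T-like cells Ifitm1 (2.53) was -0.52 in Leiden classes and -0.12 as a per-cell mean, and Ifitm3 (0.89) was -0.10 and -0.064. Ly6a in endothelial cells with 3 markers (-0.80) was 0.024 after thinning. The cause of these shifts was not tested unless stated. With 5 stromal markers, added after seeing the data, Bst2 in fibroblast-like cells moved from 0.98 to 1.86 and Ly6a from 0.46 to 1.91. T-like and neutrophil-like cells were few and shallow, with medians of 1308 and 1297 UMIs and of 1230 and 2238 UMIs. The stromal classes held few cells.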
